A study of Mus musculus with 16 samples.

Results

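The GABA-A receptor subunits described here are Gabra2, Gabra3, Gabra4, Gabra5, Gabra6, Gabrb1, Gabrb2, Gabrd and Gabrg1. Their members were taken as every probe set (a group of short array probes that reads 1 transcript) for which the platform annotation gives 1 of these 9 symbols and no other. This gave 25 of the 45101 probe sets of the array and 9 of 18194 named genes. The samples were cerebellum (cb) and rest of brain (Br, the brain without its cerebellum) of SINE KO mice and of their WT littermates, with females and males profiled separately. There were 8 groups of 2 arrays: KO and WT cerebellum of females and of males, and KO and WT rest of brain of females and of males.

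The SINE KO mice were homozygous for a small CRISPR/Cas9 deletion just after the putative start codon in the SINE exon of a brain-specific fusion transcript of Ppargc1a, the gene of the coactivator PGC1α. All mice had a C57BL/6J background, the KO animals came from 1 founder line, and the WT mice were age-matched littermates. The age of the array mice was not given in the sources used here. According to the methods, remnants of brain stem were removed by dissection, but 3 female cerebellum arrays (both KO and the first WT) detected more hindbrain and brain stem marker probe sets than any other array. Each array was made from a separate specimen of bulk tissue, so fewer cells of a type and less RNA per cell cannot be told apart. The deletion leaves the transcript in place, and all 5 probe sets of Ppargc1a were detected on all 16 arrays, so this gene does not check the genotype labels.

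GABA-A receptors are chloride channels that open when GABA, the main inhibitory transmitter of the adult brain, binds to them. Each receptor is assembled from several subunits, usually α and β subunits together with a γ or a δ subunit, and the mix decides where in the neuron the receptor sits and how it responds to drugs. In the cerebellum α6 is the subunit best known for its restriction to granule cells, where receptors of α6 and δ lie outside the synapse and carry a steady inhibitory current, while forebrain neurons use other α subunits.

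The deposited table holds 5 levels and no intensities. They were read as calls: level 2 as detected, 1 as marginal, and 0, -1 and -2 as undetected. That reading is stated by none of the sources used here, and the meaning of levels -1 and -2 is not settled. The 5 probe sets of Actb were detected on all 16 arrays, and both probe sets of the Y-linked gene Eif2s3y on 8 of 8 male and 0 of 8 female arrays. Arrays detected between 25517 and 28155 probe sets. A call says that a transcript was seen and not how much of it there was, so a subunit detected in both groups may still have differed in level. Precision is limited by the number of arrays.

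The start regions of 3 α subunit genes are shown because their calls fell into 3 different patterns: Gabra6 was detected more often in cerebellum, 1 probe set of Gabra3 on 1 cerebellum array and on all rest-of-brain arrays, and Gabra2 throughout. The windows run 5′ to 3′ on the gene's own strand (the minus strand for all 3), from 250 bases before to 50 bases after the annotated start. They come from RefSeq on build GRCm38.p6, at chr11:42321023-42321322 for Gabra6, chrX:72656870-72657169 for the second of 2 Gabra3 starts and chr5:71095800-71096099 for Gabra2. Capitals mark each CG dinucleotide, the step in the sequence at which vertebrate DNA is mainly methylated.
Gabra6: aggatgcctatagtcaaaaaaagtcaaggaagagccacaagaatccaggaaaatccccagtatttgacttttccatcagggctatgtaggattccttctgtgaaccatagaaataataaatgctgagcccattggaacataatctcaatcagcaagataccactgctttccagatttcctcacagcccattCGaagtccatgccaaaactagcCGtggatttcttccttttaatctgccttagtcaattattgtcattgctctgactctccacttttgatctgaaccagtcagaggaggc
Gabra3: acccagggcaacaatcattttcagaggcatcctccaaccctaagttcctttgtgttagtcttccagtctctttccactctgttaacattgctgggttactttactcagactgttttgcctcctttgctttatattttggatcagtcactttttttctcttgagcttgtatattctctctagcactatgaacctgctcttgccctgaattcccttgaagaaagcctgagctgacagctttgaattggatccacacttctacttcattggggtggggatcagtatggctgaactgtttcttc
Gabra2: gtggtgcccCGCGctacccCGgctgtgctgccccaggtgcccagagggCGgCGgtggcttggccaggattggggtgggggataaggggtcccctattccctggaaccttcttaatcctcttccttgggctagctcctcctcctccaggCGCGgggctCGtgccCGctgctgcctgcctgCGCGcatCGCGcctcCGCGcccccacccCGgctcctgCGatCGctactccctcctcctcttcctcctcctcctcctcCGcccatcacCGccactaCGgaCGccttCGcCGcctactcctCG

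The Gabra6 window held 2 CG dinucleotides, the Gabra3 window 0 and the Gabra2 window 25, with a GC content of 42%, 43% and 70%. Across the 32851 start windows of the same length in the table the median was 7 CG (quartiles 3 and 20) and 52.7% GC, and 23.3% of windows held 2 or fewer CG. Start windows were found for 8 of the 9 genes, with 12 starts in all. The other Gabra3 start also held 0 CG. Gabrg1 held 3, and the starts of Gabra4, Gabra5, Gabrb1 and Gabrb2 held between 9 and 25. Gabra3 and Gabra6, whose calls varied most between arrays, had the fewest CG among these starts, which is a description of 12 windows and was not tested. The 6-letter pattern CANNTG, searched on both strands, was in none of the Gabra6 and Gabra3 windows and once in Gabra2, against 72.3% of all windows with at least 1 match. TATAAA, also searched on both strands, stood once in each Gabra3 window and once in the first window of Gabrb2, against 13.6% of all windows. A match is only a match of letters, and its absence says only that these letters are not in the window.

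**Figure D1:**
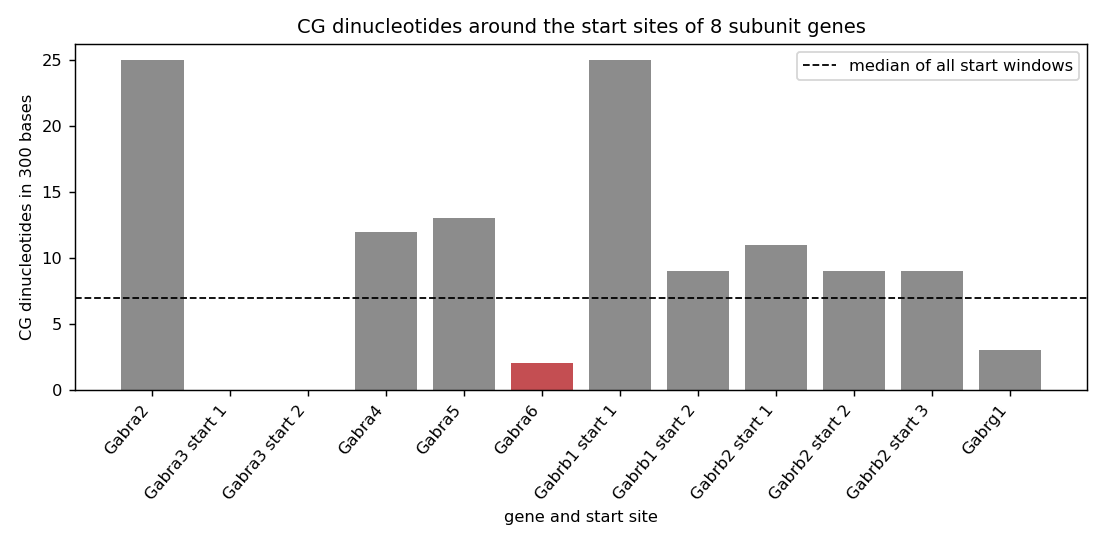
The bars give the number of CG dinucleotides (y axis) in the 300 bases around each annotated start site of 8 subunit genes (x axis), and the dashed line is the median of 7 over all start windows of the table. Gabra6, in red, reaches 2, both Gabra3 starts are at 0 and show no bar, and Gabra2 and the first start of Gabrb1 reach 25.

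In the same build, 6 of the 9 genes lie in 2 clusters. On chromosome 5, Gabrg1 (70751047 to 70842617), Gabra2 (70958392 to 71095849), Gabra4 (71569734 to 71658308) and Gabrb1 (71657921 to 72149572) follow each other, and Gabra4 and Gabrb1 overlap by 388 bases on opposite strands. On chromosome 11, Gabra6 (42306437 to 42321072) and Gabrb2 (42419515 to 42632591) lie 98.4 kb apart. Gabrd is on chromosome 4 (155384979 to 155398098), Gabra5 on chromosome 7 (57407669 to 57591016) and Gabra3 on chromosome X (72432676 to 72656919). Neighbours did not share a pattern of calls throughout: Gabra6 varied between arrays, while the 5 probe sets of Gabrb2 next to it were detected on all 16.

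Most subunit probe sets gave the same call everywhere. Of the 25, 17 (68%) were detected on all 16 arrays, 4 (16%) on none and 4 (16%) on some, against 48.0%, 27.0% and 25% of all 45101 probe sets. Among their 400 values, 318 (79.5%) were at level 2, 2 at level 1, 79 at level 0 and 1 at level -1. Between 19 and 21 of the 25 were detected on each cerebellum array and likewise on each rest-of-brain array, with a median of 20 in both. Every gene had at least 1 probe set detected on all 8 cerebellum arrays except Gabra5, which was detected on 7, and every gene except Gabra6 had 1 detected on all 8 rest-of-brain arrays. The 4 probe sets never detected were 1420299_at and 1449807_x_at of Gabra2, 1443834_at of Gabrb1 and 1457763_at of Gabrd. Each of these genes had another probe set that was detected on all 16 arrays. The 4 were all designed on sequences other than a RefSeq mRNA. So were most of the members detected on all 16 arrays, so the type of target does not set the 4 apart.

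**Figure D2:**
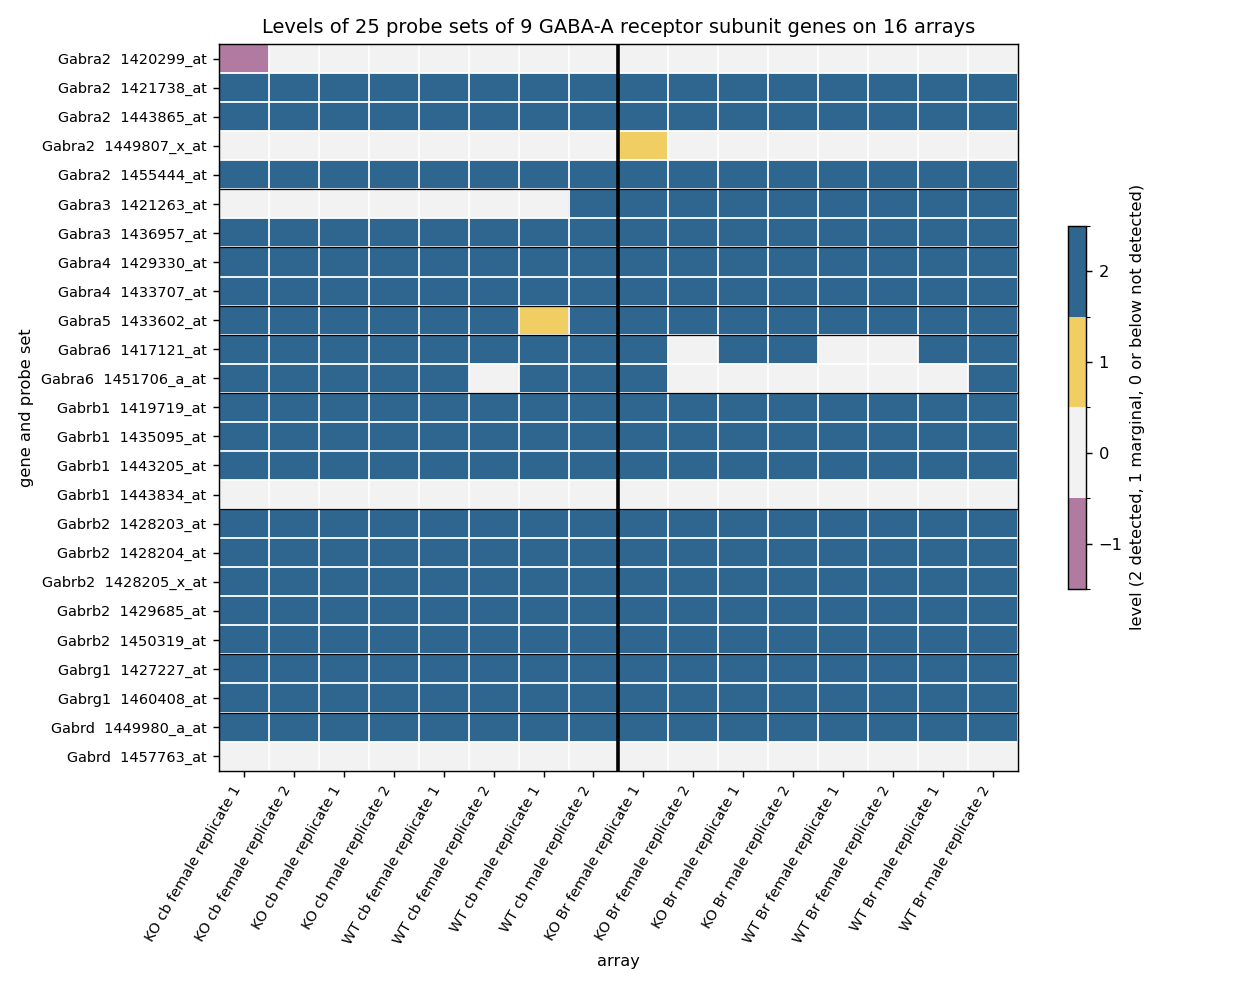
Each row is 1 of the 25 probe sets and each column 1 of the 16 arrays, with the colour giving the deposited level. The 17 probe sets at level 2 throughout form unbroken rows, and the 2 Gabra6 probe sets and 1421263_at of Gabra3 change between the brain parts.

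Gabra2 encodes α2, a subunit known from forebrain synapses and the axon initial segment. Probe sets 1421738_at, 1443865_at and 1455444_at, were at level 2 on all 8 cerebellum and all 8 rest-of-brain arrays. Of the other pair, which share 1 target sequence, 1420299_at was at level 0 on 15 arrays and at -1 on the first KO female cerebellum array, and 1449807_x_at was at level 0 on 15 and at 1 on the first KO female rest-of-brain array.

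Gabra4 encodes α4, which joins δ in receptors outside the synapse in the thalamus and dentate gyrus. Both of its probe sets were at level 2 on all 16 arrays. Gabra5, whose α5 subunit is best known from hippocampal pyramidal cells, had 1 probe set, 1433602_at. It was at level 2 on all 4 KO cerebellum arrays, both WT female and the second WT male cerebellum array, at level 1 on the first WT male cerebellum array, and at level 2 on all 8 rest-of-brain arrays. Detection on 7 of 8 cerebellum and 8 of 8 rest-of-brain arrays gave a two-sided Fisher's exact p of 1.

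Gabra3 encodes α3, known from the cortex, the reticular thalamus and monoaminergic neurons. Its 2 probe sets differed from each other. 1436957_at was at level 2 on all 16 arrays. The other, 1421263_at, which was designed on a RefSeq mRNA, was at level 0 on all 4 KO cerebellum arrays and on 3 of the 4 WT cerebellum arrays, at level 2 on the second WT male cerebellum array, and at level 2 on all 8 rest-of-brain arrays. Thus the brain parts overlapped through a single WT male cerebellum array.

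Gabra6 encodes α6, the granule cell subunit. Its probe set 1417121_at, designed on a RefSeq mRNA, was at level 2 on all 8 cerebellum arrays. In the rest of the brain it was at level 2 on the first and 0 on the second KO female array, 2 on both KO male arrays, 0 on both WT female arrays and 2 on both WT male arrays. It was thus detected in the rest of the brain on 1 of 4 female and 4 of 4 male arrays. The second probe set, 1451706_a_at, was at level 2 on all 4 KO cerebellum arrays and on the first WT female and both WT male cerebellum arrays, and at level 0 on the second WT female cerebellum array. In the rest of the brain it was at level 2 only on the first KO female and the second WT male array, and at 0 on the other 6. The brain parts overlapped for both probe sets.

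The β subunits, which form the GABA binding site together with α, were seen everywhere. All 5 probe sets of Gabrb2 (β2) were at level 2 on all 16 arrays, of which 1428203_at, 1428204_at and 1428205_x_at share a target and are not separate evidence. Gabrb1 (β1) had 3 probe sets at level 2 on all 16 arrays, 1419719_at, 1435095_at and 1443205_at, and 1443834_at on none.

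Gabrg1 encodes γ1, a γ subunit that can take the place next to α and β in the receptor. Its 2 probe sets, which share a target, were at level 2 on all 16 arrays. Gabrd encodes δ, the partner of α6 and α4 outside the synapse, and its probe set 1449980_a_at was at level 2 on all 16. Unlike Gabra6, Gabrd thus gave no difference in calls between cerebellum and rest of brain.

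The comparison of cerebellum and rest of brain asks which subunits were seen in one brain part more often than in the other, pooling both genotypes and sexes (8 and 8 arrays). Gabra3 1421263_at was detected on 1 of 8 cerebellum and 8 of 8 rest-of-brain arrays, 87.5 percentage points lower in cerebellum (two-sided Fisher's exact test, p = 0.0014). After Benjamini-Hochberg adjustment over all 45101 probe sets this was not called (Fisher's exact test, adjusted p = 0.161). That test called 0 members and 0 probe sets in all (0% of 45101), while 2 of the 25 members and 2.76% of all probe sets had an unadjusted exact p under 0.05. Even a complete split, such as that of the marker gene Tbr1 (0 of 8 cerebellum and 8 of 8 rest-of-brain arrays), reached only an adjusted p of 0.0501 in this Fisher's exact test. Adjustment over the 3873 probe sets whose total number of detected arrays could give an exact p under 0.05 at all, a choice made after the first result was known, called Gabra3 1421263_at (Fisher's exact test, adjusted p = 0.0138). Of the 2 members that could be tested there, 1 was called, against 17.1% of the 3873. By direction, 0 members were higher in cerebellum, against 5.55% of the 3873, and 1 was higher in the rest of the brain, against 11.5%. A share of 2 members was not read against the background. Leaving out the second WT male cerebellum array made the groups fully separate, at 0 of 7 cerebellum against 8 of 8 rest-of-brain arrays. Gabra3 was then called over all probe sets too (Fisher's exact test, adjusted p = 0.0461). That array was the only one against the difference, so the full split had to follow and is not separate support. No other single array left out gave a call over all probe sets. The call over the 3873 was lost with Benjamini-Yekutieli adjustment (Fisher's exact test, adjusted p = 0.122). It was lost too with the replicate block, which takes same-numbered arrays together (exact test, adjusted p = 0.154). Not even a complete split had a lower adjusted p in that block, so no probe set could be called there and this loss says nothing about Gabra3 itself. The call was also lost when the 3 female cerebellum arrays high in hindbrain markers were left out together, an alternative chosen after seeing the data. This left 5 cerebellum and 8 rest-of-brain arrays, with detection 80 percentage points lower in cerebellum (Fisher's exact test, p = 0.00699, adjusted p = 0.0606).

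Within each genotype Gabra3 1421263_at pointed the same way. It was detected on 0 of 4 KO cerebellum and 4 of 4 KO rest-of-brain arrays (Fisher's exact test, p = 0.0286, the smallest this design allows). In WT it was detected on 1 of 4 cerebellum and 4 of 4 rest-of-brain arrays (Fisher's exact test, p = 0.143). Complete splits, with every array of one part detected and none of the other, numbered 1 of the 25 members in KO (Gabra3 1421263_at), against 1.25% of all probe sets, and 0 in WT, against 0.585%. Over all 16 arrays, 0 members and 0.31% of all probe sets were split so completely.

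Gabra6 1451706_a_at was detected on 7 of 8 cerebellum and 2 of 8 rest-of-brain arrays, 62.5 percentage points higher in cerebellum (two-sided Fisher's exact test, p = 0.0406). It was not called after adjustment over the 3873 probe sets (Fisher's exact test, adjusted p = 0.126). Without the second WT female cerebellum array the difference was 75 percentage points and was called (Fisher's exact test, p = 0.00699, adjusted p = 0.0371). That array was the only cerebellum array where this probe set was not detected, so this call is not separate support. Leaving out any other single array did not give it. In KO it was detected on 4 of 4 cerebellum and 1 of 4 rest-of-brain arrays (Fisher's exact test, p = 0.143), and in WT on 3 of 4 and 1 of 4 (Fisher's exact test, p = 0.486). Gabra6 1417121_at was detected on 8 of 8 cerebellum and 5 of 8 rest-of-brain arrays, 37.5 points higher in cerebellum, with an exact p of 0.2. Both Gabra6 probe sets thus had the same direction, but neither passed the adjusted test over all arrays, and a p that misses the threshold does not show that the parts were alike.

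Counting probe sets per gene, Gabra3 had 1.13 ± 0.354 of its 2 detected in cerebellum and 2 ± 0 in rest of brain (SD, n = 8 each; exact permutation test, p = 0.0014, adjusted p = 0.0877 over all genes). Gabra6 had 1.88 ± 0.354 of 2 detected in cerebellum and 0.875 ± 0.835 in rest of brain (SD, n = 8 each; exact permutation test, p = 0.0238, adjusted p = 0.604). The gene-wise test called 0 of the 9 genes after adjustment, against 0.627% of 18194 genes, and at an unadjusted exact p under 0.05 it had 2 of the 9, Gabra3 and Gabra6, against 4.99% of all genes. Gabra5 averaged 0.875 ± 0.354 of its 1 probe set in cerebellum and 1 ± 0 in rest of brain (SD, n = 8 each; exact permutation test, p = 1). For Gabra2, Gabra4, Gabrb1, Gabrb2, Gabrd and Gabrg1 the number of probe sets detected was the same on every array.

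**Figure D3:**
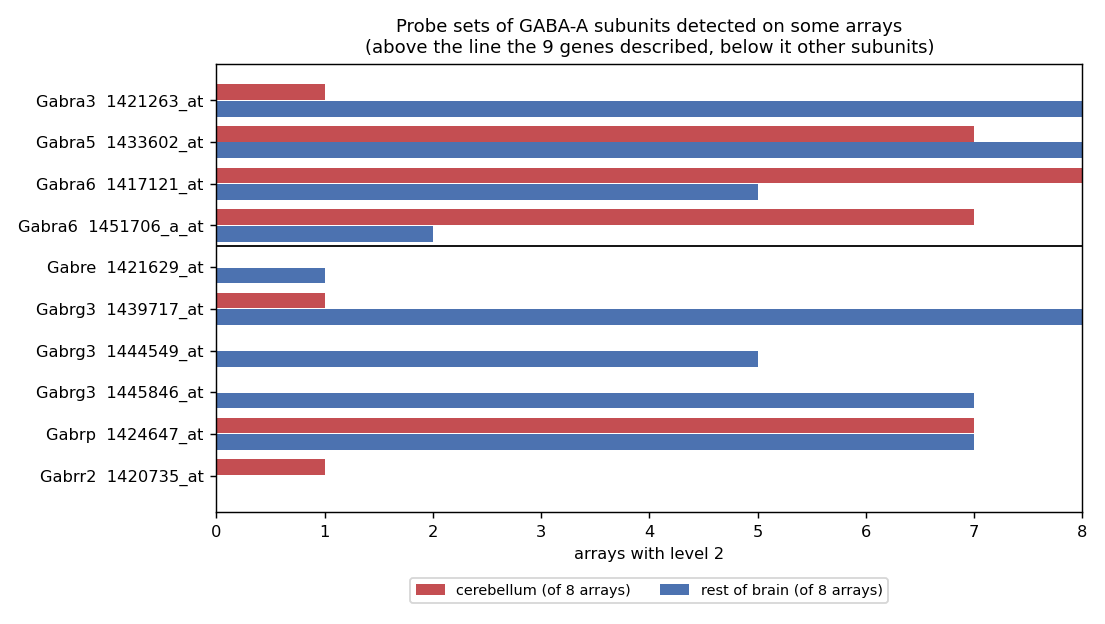
Bars give the number of arrays (x axis, of 8) on which each probe set was at level 2, for cerebellum in red and the rest of the brain in blue, for the GABA-A subunit probe sets detected on some arrays but not all. Gabra3 1421263_at and 2 Gabrg3 probe sets have the widest gaps towards the rest of the brain (1 or 0 of 8 cerebellum arrays against 7 or 8), and Gabra6 1451706_a_at the widest gap towards cerebellum (7 against 2).

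The comparison of SINE KO with WT asks whether loss of the SINE isoform changed which subunits were detected. With 8 KO and 8 WT arrays, Fisher's exact test called 0 members and 0% of all 45101 probe sets after adjustment, and 0 members and 0% of the 3873 when adjusted over those. At an unadjusted exact p under 0.05 there were 0 members, against 0.0843% of all probe sets. Gabra6 1417121_at was detected on 7 KO and 6 WT arrays and 1451706_a_at on 5 KO and 4 WT arrays. Gabra3 1421263_at was detected on 4 KO and 5 WT arrays, and Gabra5 1433602_at on 8 KO and 7 WT arrays. These are differences of 1 array each. By gene, Gabra6 had 1.5 of 2 probe sets detected in KO and 1.25 in WT, on average over 8 arrays each (exact permutation of genotype inside each sex and brain part, p = 0.75). That test called 0 of 9 genes and 0% of all genes after adjustment, and at an unadjusted exact p under 0.05 it had 0 of the 9, against 0.126% of all genes. The smallest p that arrangement allows is 0.00154.

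Within sex and brain part, with 2 KO and 2 WT arrays, the smallest exact p is 0.333 and no test was made. No member was detected on both arrays of one genotype and neither of the other. The count was 0 of 25 in female cerebellum, against 1.45% of all probe sets, 0 in male cerebellum (1.1%), 0 in female rest of brain (0.94%) and 0 in male rest of brain (1.02%).

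Some members were detected on unequal numbers of KO and WT arrays. In female cerebellum this was 1 of 25 members, against 11.3% of all probe sets: Gabra6 1451706_a_at, on 2 KO arrays and 1 WT array. In male cerebellum it was 2 of 25, against 10.6%: Gabra3 1421263_at on 0 KO arrays and 1 WT array, and Gabra5 1433602_at on 2 KO arrays and 1 WT array. In female rest of brain it was 2 of 25, against 9.03%, both of them Gabra6, each on 1 KO array and 0 WT arrays. In male rest of brain it was 1 of 25, against 8.93%: Gabra6 1451706_a_at, on 0 KO arrays and 1 WT array. These shares lay below the background, but a probe set with 1 call throughout cannot be unequal. Only 4 of the 25 members (16%) were detected on some arrays and not on others, against 25% of all probe sets. The lower shares were thus not read as a result about genotype. Arrays of the same group differed at 8.92% to 11.2% of probe sets. For Gabra6 the direction of the unequal counts was not the same in females and males of the rest of the brain.

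Of 10 other GABA-A subunit genes listed, 6 were named by the annotation, with 10 probe sets, and the other 4 were not analysed here. Of these 10 probe sets 0 were detected on all 16 arrays, 4 on none and 6 on some. Gabrg3, which encodes γ3, was seen in the rest of the brain more often. Its probe set 1439717_at was detected on 1 of 8 cerebellum arrays (the second WT female) and 8 of 8 rest-of-brain arrays, and 1445846_at on 0 of 8 and 7 of 8, and both were called over the 3873 probe sets (Fisher's exact test, p = 0.0014 and adjusted p = 0.0138 for each) but not over all (adjusted p = 0.161). A further Gabrg3 probe set, 1444549_at, was detected on 0 of 8 cerebellum and 5 of 8 rest-of-brain arrays (Fisher's exact test, p = 0.0256, adjusted p = 0.0944), and 1422187_at on none. Among KO arrays alone, 1439717_at and 1445846_at were each detected on 0 of 4 cerebellum and 4 of 4 rest-of-brain arrays, as Gabra3 1421263_at was.

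The other parts of the GABA pathway were mostly detected throughout. Of the 11 probe sets for synthesis, packing and breakdown of GABA, 7 were detected on all 16 arrays and 4 on none. For GABA uptake, 2 of 4 were detected on all arrays, 1 each of Slc6a11 and Slc6a13. Gabbr1, a subunit of the GABA-B receptor, had 3 of 4 on all, and the chloride carriers Slc12a2 and Slc12a5 had 4 of 5. Of the 32 probe sets for receptor anchoring and trafficking, 26 were detected on all arrays, 4 on none and 2 on some. In these 5 lists Fisher's exact test called 0 probe sets between the brain parts and 0 between KO and WT, with 0 at an unadjusted p under 0.05 in either comparison. Of their 56 probe sets, 53 had the same call on all 16 arrays and only 1, of Slc12a5, was among the 3873, so a count of 0 says little beside the 17.1% called there between the parts. The median difference in arrays detected, cerebellum minus rest of brain, was 0 in each of them, as it was for the 25 members and for all probe sets.

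Of the anchoring genes, Nlgn2 and Trak1 each had a probe set that separated KO from WT in male cerebellum, 2 of the 32 anchoring probe sets against 1.1% of all probe sets. In the other 3 combinations of sex and brain part 0 of the 32 did, so both come from a search over 4 comparisons and were not tested within them. Nlgn2 encodes neuroligin 2, an adhesion protein of inhibitory synapses. Its probe set 1460013_at was at level 0 on both KO male cerebellum arrays and level 2 on both WT male cerebellum arrays. Over all arrays it was detected on 4 of 8 KO and 8 of 8 WT arrays (two-sided Fisher's exact test, p = 0.0769), while 1455143_at of the same gene was at level 2 on all 16. Trak1 encodes a trafficking adaptor of organelles. Its probe set 1459666_at was at level 1 on both KO male cerebellum arrays and level 2 on both WT male cerebellum arrays. Female cerebellum went the other way, at level 2 on both KO arrays and at 0 and 2 on the WT arrays, and over all arrays it was detected on 6 of 8 KO and 7 of 8 WT arrays (two-sided Fisher's exact test, p = 1). The other 3 Trak1 probe sets were at level 2 on all 16.

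The brain part labels were checked against region markers. Of 16 probe sets of cerebellar granule cell genes, between 11 and 16 were detected per cerebellum array and between 8 and 12 per rest-of-brain array. The second WT female cerebellum array had the lowest granule count, 11, and the lowest Purkinje cell count, 9 of 13 probe sets against 13 on each of the other 7 cerebellum arrays. It also had 7 of 10 cortex and hippocampus marker probe sets, the highest among cerebellum arrays, which otherwise had 3 to 6, against 9 on every rest-of-brain array. Gabra6 1451706_a_at was at level 0 on that array, the only cerebellum array where it was not detected. Rest-of-brain arrays carried granule markers too, and the 2 on which both Gabra6 probe sets were detected had the highest counts, 12 and 11 of 16, against 8 to 10 on the other 6. On the 3 rest-of-brain arrays with neither Gabra6 probe set detected the granule counts were 9, 8 and 8. The Purkinje cell counts ran alike. They were 13 and 11 of 13 on the rest-of-brain arrays with both Gabra6 probe sets detected, against 8 to 10 on the other 6. A probe set of Cbln3, a granule cell gene, had the same calls as Gabra6 1417121_at on all 16 arrays. So did a probe set of Slc6a5, from the hindbrain and brain stem list, and a probe set of Pcp2, a Purkinje cell gene, differed on 1 array. The match was thus not particular to granule cell genes. Zic2, another granule cell gene, was detected on 8 of 8 cerebellum and 0 of 8 rest-of-brain arrays. The second WT male cerebellum array, where Gabra3 1421263_at was detected, had 6 of 10 cortex and hippocampus marker probe sets. The second WT female cerebellum array had more of these markers, 7 of 10, but there Gabra3 1421263_at was at level 0. On these 2 arrays, but on no other cerebellum array, Emx2 and 1 of the 4 Bcl11b probe sets were detected. Tbr1 and Emx1 were detected on none of the 8. The part of these markers in the Gabra6 and Gabra3 calls was not tested.

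Cerebellum arrays also differed in the hindbrain and brain stem markers. Of 21 probe sets, 14 and 12 were detected on the KO female cerebellum arrays and 2 on each KO male one, against 9 and 2 on the WT female and 3 and 2 on the WT male cerebellum arrays. Rest-of-brain arrays had 1 to 6 in KO and 2 to 7 in WT. Probe sets of Slc6a4, Hoxb5 and Hoxc5 were at level 2 on both KO female cerebellum arrays and on no other array, which differs from what the dissection described would leave. This difference runs with KO against WT in female cerebellum, where Gabra6 1451706_a_at was detected on 2 KO arrays and 1 WT array, and its part in that comparison was not tested. With the 3 high arrays left out together, KO against WT called 0 members over all probe sets and 0 over the testable ones (Fisher's exact test). At an unadjusted p under 0.05 there were 0 of the 25 members, against only 34 of all 45101 probe sets. A count of 0 therefore says little about the members.

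**Figure D4:**
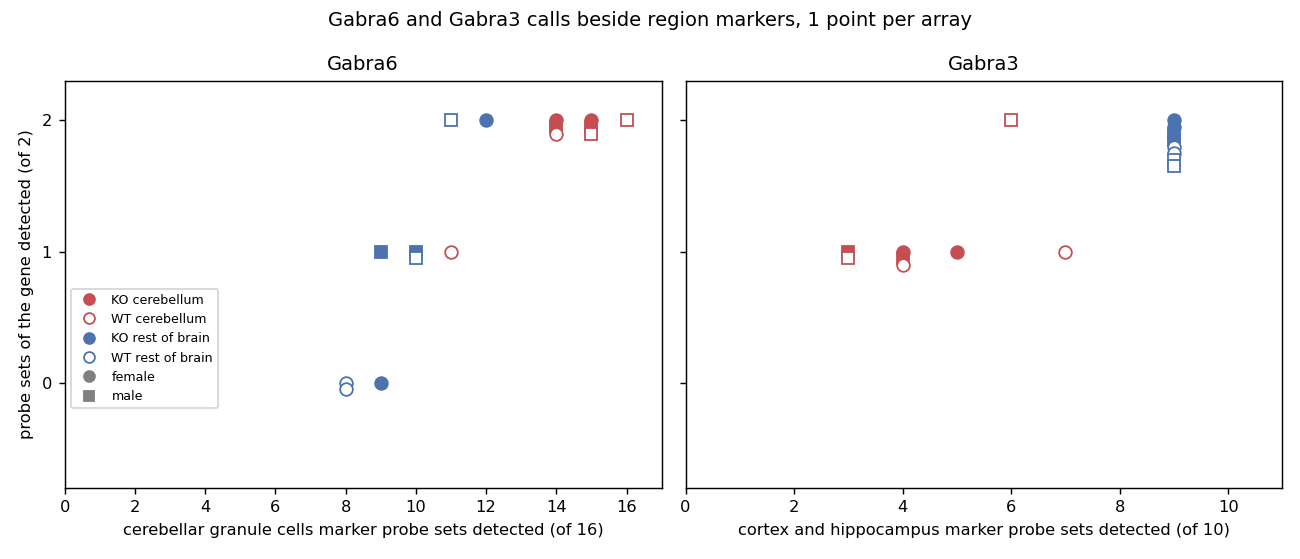
Each point is 1 array, with the number of Gabra6 or Gabra3 probe sets detected (y axis, of 2) against the number of region marker probe sets detected (x axis, granule cell markers of 16 on the left, cortex and hippocampus markers of 10 on the right), and points at the same place are stacked slightly downward. Cerebellum arrays, in red, lie at the right for Gabra6 with the second WT female array at 11, and at the left for Gabra3 with the second WT male array alone at 2 of 2 detected.

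Other probe sets shared the pattern of the uneven subunits, counted as the number of the 16 arrays on which the call differed. For Gabra3 1421263_at, 6 of 34957 other probe sets had the same call on all 16 arrays, 126 differed on 1 array and 183 on 2. The first 5 of the 6 in alphabetical order were of Adra2c, Cpne4, Gfra1, Gm20754 and Kcnip2. Among marker genes, single probe sets of Bcl11b, Emx1, Emx2 and Tbr1, forebrain transcription factors, differed from it on 1 array, and 2 of Drd1 and 2 of Gabrg3 on 2 arrays. For Gabra6 1451706_a_at, 4 others had the same call on all arrays (Arhgef33, Cnpy1, Crtam and Dap), 24 differed on 1 and 78 on 2. Among markers, Cbln3 and Fat2, granule cell genes, and 2 probe sets of Pcp2, a Purkinje cell gene, differed on 1 array. Gabra6 1417121_at was detected on 13 arrays and was not compared with all other probe sets in this way.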

How the data were processed

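RNA from 16 specimens was hybridised to Affymetrix arrays. The authors give MAS5 in their methods (and in the submitters' processing notes) but RMA in their results. A human array is named in the methods, whereas the platform annotation is that of a mouse array. The deposited values hold 5 distinct numbers, treated as a score: as 4-byte numbers their first byte is 2, 1, 0, -1 or -2, and values above 5e-38 (level 2) were called detected. Groups came from the sample titles. Symbols were those of the platform annotation (1 symbol for 34958 probe sets, several for 932, and 9211 unnamed here). It is not stated whether cb and Br arrays of 1 number share an animal.

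Calls were compared per probe set by a two-sided Fisher's exact test, and per gene by exact permutation of probe sets detected per gene (12870 splits for brain part, 1296 arrangements within sex and brain part for genotype), each with Benjamini-Hochberg adjustment at 0.05. The tests were tried on simulated calls. The genes named were all 9 members, any listed gene called, switched or with an unadjusted p under 0.05, and for likeness the listed genes and up to 5 others nearest in calls. Members, lists and tests were chosen with earlier results of these data known. Alternatives were other readings of the levels, adjustment, pairing, units and leaving out each array. Intensities and fold changes were not analysed here. Scripts ran in Python 3.11.15 (scipy 1.17.1, numpy 2.4.6, matplotlib 3.10.9, pandas 2.3.3).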

Additional observations from a re-analysis of the deposited data

Results flagged for a closer look

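Within the 8 arrays of a brain part, 5 probe sets had 1 array apart from the other 7 by more than Dixon's critical value, which chance exceeds in about 1 of 20 groups. Because calls have few levels, any single array that differs from 7 equal ones passes it. Gabra3 1421263_at was at level 2 on the second WT male cerebellum array and at 0 on the other 7 cerebellum arrays. Gabra6 1451706_a_at was at level 0 on the second WT female cerebellum array and at 2 on the other 7. Gabra5 1433602_at was at level 1 on the first WT male cerebellum array and at 2 on the other 7. Gabra2 1420299_at was at level -1 on the first KO female cerebellum array and at 0 on the other 7, and Gabra2 1449807_x_at was at level 1 on the first KO female rest-of-brain array and at 0 on the other 7 rest-of-brain arrays.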

How the results depend on the processing

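Calls of KO against WT stayed at 0 members under every alternative run, and no result turned round. In the main run these tests called 0 of 45101 probe sets and 0 of 18194 genes, so a count of 0 says little about the members. Between cerebellum and rest of brain, adjustment over the testable probe sets (3873 in the main run) called 1 member. The count was 0 by Benjamini-Yekutieli adjustment, 0 with the replicate block and 0 counting genes with any probe set detected. The block could call no probe set at all. Counted by any probe set, Gabra5 was detected on 15 arrays, Gabra6 on 13 and the other genes on all 16. None of these totals can give an exact p under 0.05, so that 0 was fixed in advance. The count was also 0 without the 3 cerebellum arrays high in hindbrain markers (chosen after seeing the data). For Gabra3 1421263_at the adjusted p was 0.122 by Benjamini-Yekutieli adjustment (Fisher's exact test) and 0.154 in the exact test with the replicate block. It was 0.0606 without those 3 arrays (Fisher's exact test), against 0.00489 to 0.0167 over the other 19 alternatives. Taken by themselves, the KO arrays called 0 members and 0 of all 1275 testable probe sets, and the WT arrays 0 members and 0 of 1130. Even the complete split of Gabra3 1421263_at in KO reached only an adjusted p of 0.0644 (Fisher's exact test). A count of 0 members in these subsets thus says nothing about the members. Deviations of same-numbered arrays had correlations of -0.0217 to 0.0470 between cerebellum and rest of brain, and of -0.00310 to 0.0716 between KO and WT. With 2 arrays per group these cannot show whether same-numbered arrays share an animal, so the result with the replicate block is given beside the others. Leaving out 1 array gave 1 to 2 members between the brain parts over the testable probe sets (2 without the second WT female cerebellum array). The count was 0 to 1 over all probe sets, over genes and for complete splits (1 without the second WT male cerebellum array). The count of members split between KO and WT within sex and brain part was 0 to 2 when 1 array was left out (2 without the second KO female rest-of-brain array), where 1 array stood for a group. The 16 arrays set the precision, and a call holds no level.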
